A study of Homo sapiens with 5 samples.

Results

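The NRF2 pathway and the main antioxidant defense genes were examined in fibroblasts depleted of NSD2. The 10 genes, taken by symbol from 26364 listed, were NFE2L2, KEAP1, HMOX1, NQO1, GCLC, GCLM, TXNRD1, SOD1, SOD2 and SLC7A11. mRNA-seq was performed on growing cells of IMR-90, a line of normal fibroblasts from human lung, at 24 hr after siRNA transfection. The 2 Ctr-KD libraries carried a control siRNA, and the 3 NSD2-KD libraries each carried a different siRNA against NSD2 (NSD2-1, NSD2-2 and NSD2-3). NSD2 is a histone methyltransferase for H3K36. Because every NSD2-KD library had its own siRNA, an effect of a single siRNA and the variation between cultures cannot be told apart, and for any single siRNA n = 1. All values are normalized counts, that is, reads on a gene divided by a factor that sets the libraries to a common depth.

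NRF2, the product of NFE2L2, is a transcription factor that is kept low in unstressed cells by KEAP1. KEAP1 holds NRF2 on a CUL3 ubiquitin ligase, and oxidants or electrophiles that modify KEAP1 let NRF2 accumulate. NRF2 then pairs with a small MAF protein (MAFG, MAFK or MAFF) at antioxidant response elements (AREs) in genes for glutathione synthesis, quinone reduction, the thioredoxin system and heme breakdown. BACH1 competes for the same elements and represses them, with HMOX1 as its best known target. Much of this pathway acts through protein stability, which mRNA levels do not show.

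The core of the ARE, TGACNNNGC, was sought on both strands of the RefSeq promoter windows (250 bases before to 50 after the start site, GRCh38.p14), since it is the element the transcription factor and its competitor share. Of the 10 genes, 7 had a window in this table and 3 of the 7 held the motif, against 16.1% of all 27305 genes with a window and 13.3% of the 35116 windows. The sites in KEAP1, GCLM and TXNRD1 are printed below on the strand that carries the motif, with 10 bases on each side and the 9 bases of the motif in capitals. Each distance runs from the start site to the motif base farthest upstream, so the TXNRD1 site given as 8 bases before the start reaches the start site itself. A match is a description of the letters only. The coordinates are in GRCh38.p14, a later build than the one used for counting.
GCLM, chr1:93909446-93909474, 34 bases before the start: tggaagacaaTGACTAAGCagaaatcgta
KEAP1, chr19:10502784-10502812, 31 bases before a second start: caggtcaccaTGACTAAGCagagccgggc
KEAP1, chr19:10502807-10502835, 54 bases before a second start: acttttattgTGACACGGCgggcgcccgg
TXNRD1, chr12:104215670-104215698, 99 bases before the start: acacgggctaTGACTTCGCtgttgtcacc
TXNRD1, chr12:104215761-104215789, 8 bases before the start: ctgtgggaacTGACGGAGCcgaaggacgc
TXNRD1, chr12:104286920-104286948, 102 bases before a second start: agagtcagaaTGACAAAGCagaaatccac
The GCLM site and the KEAP1 site nearer that second start carried the same 9 letters, TGACTAAGC, followed in both by the bases aga. NFE2L2, NQO1, GCLC and SOD2 had a window without the motif, and HMOX1, SOD1 and SLC7A11 had no window in this table. Sites outside these windows were not sought, so a window without the motif does not show that the gene lacks the element.

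Reads on genes ranged from 2473691 to 2845063 per library, and 3 reads, the limit that a count of 0 allows, corresponded to normalized counts of 2.76 to 3.28. NSD2, listed as WHSC1, was 463 and 443 in Ctr-KD cells and 90.2, 81.9 and 87.9 in NSD2-KD cells, so the targeted mRNA was lower with every siRNA (limma, log2 difference -2.37, adjusted p = 0.000464). The 2 Ctr-KD libraries differed by little more than the counting noise (chi-square per degree of freedom 1.05), while the NSD2-KD libraries differed from each other with values of 5.38 to 5.65. Pairs of a Ctr-KD and an NSD2-KD library had values of 4.11 to 5.43, so the NSD2-KD libraries were no closer to each other than to the controls. The supporting procedures call the 2 Ctr-KD libraries biological replicates. A control spread this small may still be technical, and the p-values measure only the spread between these samples. Of 12 fibroblast markers 11 had a mean of at least 10, with COL1A1 and COL1A2 highest and S100A4 the exception, and the summed markers took 7.88% to 8.7% of the counts. KRT5, KRT14 and SFTPC of epithelium, PECAM1 and CDH5 of endothelium, and PTPRC, CD3E and LYZ of blood cells were at 0 in every library. Of the other epithelial markers, CLDN4 was 8.57 to 10.3 in Ctr-KD and 10.7 to 24 in NSD2-KD cells (limma, adjusted p = 0.689). Every siRNA gave a CLDN4 value above both controls, as in 13.8% of all genes tested, but the lowest was barely above. EPCAM stayed at 0.92 to 2.18, under the limit of 3 reads. The part of these markers in the results was not tested. TEK, listed as endothelial, reached 97.6 to 150, and CD68, listed as immune, reached 60.5 to 103.

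None of the 10 genes passed the test of the 3 NSD2-KD against the 2 Ctr-KD libraries (limma on log2(normalized count + 1), adjusted p under 0.05 over 11313 genes with a mean of at least 10). All 10 genes were tested. The background was low, with 4 genes higher (0.0354%) and 6 lower (0.053%), and the members were also uncalled by edgeR (0.141% of genes called), DESeq2 (0.477%) and limma-voom (0.0884%). At an unadjusted p under 0.05, GCLC and GCLM were higher and no member was lower, beside 4.19% of all genes higher and 4.99% lower. In 5 of the 10 genes, NFE2L2, KEAP1, NQO1, GCLC and GCLM, all 3 NSD2-KD libraries lay above both Ctr-KD libraries. This held for 13.8% of all genes. The rule compares point values only. In each of the 5, the lowest NSD2-KD library and the higher Ctr-KD library had overlapping 95% Poisson counting intervals. No member had all 3 below, which held for 13.9% of all genes, and in the other 5 members the groups overlapped. The fitted difference was positive for 9 members and negative for SOD1, beside 5491 positive among all 11313 genes tested. Of the 9, SOD2 was at only 0.015. The median difference of the members was 0.21 on the log2 scale against -0.0089 for all genes tested. Per siRNA, the median of the members was 0.23 with NSD2-1, 0.15 with NSD2-2 and 0.19 with NSD2-3.

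**Figure D1:**
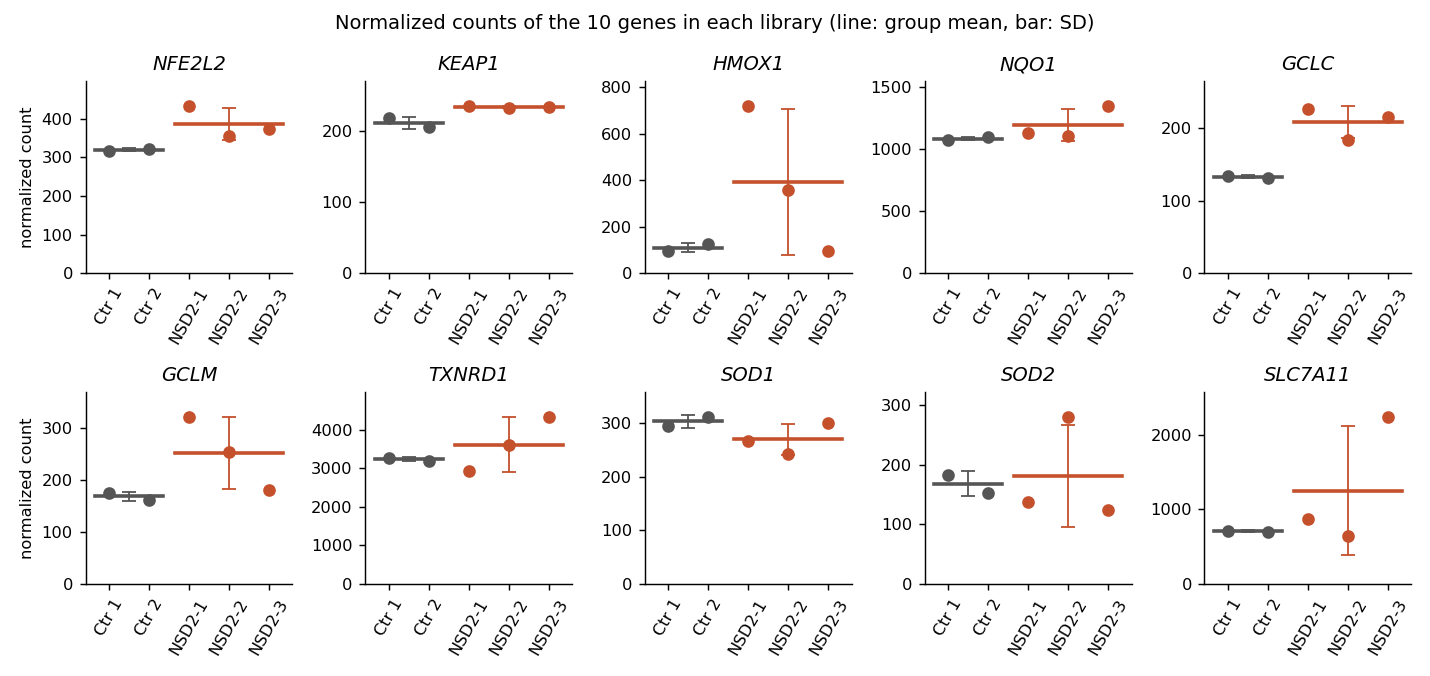
Normalized counts of the 10 genes, 1 panel per gene, in the 2 Ctr-KD libraries (grey) and the 3 NSD2-KD libraries (orange, named by siRNA). Points are libraries, lines are group means and bars are SDs, and the vertical axes start at 0. GCLC was above both Ctr-KD libraries with every siRNA, while HMOX1 stood high with NSD2-1 (719) and NSD2-2 (359) only and SLC7A11 with NSD2-3 (2246).

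Of the regulators, NFE2L2 had normalized counts of 316 and 322 in Ctr-KD cells and 432, 354 and 374 with siRNAs NSD2-1, NSD2-2 and NSD2-3. The groups did not overlap, and in such bulk RNA a different number of cells with the mRNA and a different amount per cell cannot be told apart. The means were 319 ± 4.05 (SD, n = 2) and 387 ± 40.8 (SD, n = 3), a fold of 1.21. The log2 difference was 0.27 (SE 0.12, 95% interval -0.0042 to 0.55), which did not pass (limma, adjusted p = 0.55). KEAP1, the adaptor that targets NRF2 for degradation, was 218 and 206 in Ctr-KD cells and 236, 233 and 234 in NSD2-KD cells. Its 3 NSD2-KD values lay above both controls. They were closer together than those of 99.9% of tested genes, with a log2 range of 0.018, but the counting error was wider. The 95% Poisson counting intervals of KEAP1 were 208 to 266, 203 to 266 and 206 to 266 with NSD2-1, NSD2-2 and NSD2-3, and overlapped those of both controls. The log2 difference of KEAP1 was 0.14 (95% interval -0.11 to 0.40, limma adjusted p = 0.762).

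GCLC and GCLM encode the catalytic and the modifier subunit of glutamate-cysteine ligase, which makes the first and rate-limiting step of glutathione synthesis. GCLC was 134 and 132 in Ctr-KD cells and 226, 184 and 215 in NSD2-KD cells. Every siRNA gave a value above the controls, at 1.70, 1.38 and 1.61 times their mean. The means were 133 ± 1.87 (n = 2) and 208 ± 22.2 (n = 3), and the log2 difference of 0.64 (SE 0.14, 95% interval 0.32 to 0.95) had the smallest p among the members (limma, unadjusted p = 0.00156, adjusted p = 0.216). GCLM was 175 and 163 in Ctr-KD cells and 321, 253 and 182 in NSD2-KD cells. With NSD2-1 and NSD2-2 the level of GCLM stood at 1.90 and 1.50 times the control mean, while with NSD2-3 it was 1.07 times that mean and barely above the higher control. Its log2 difference was 0.54 (SE 0.22, 95% interval 0.037 to 1.04, limma adjusted p = 0.505). With NSD2-3 the 2 subunits thus parted, GCLC at 1.61 times and GCLM at 1.07 times their control means; a difference between the subunits was not tested.

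SLC7A11, the cystine transporter subunit that supplies cysteine for glutathione, showed another arrangement. Its normalized counts were 715 and 698 in Ctr-KD cells and 876, 643 and 2246 in NSD2-KD cells. The library with NSD2-3 stood at 3.18 times the control mean, with NSD2-1 at 1.24 times and NSD2-2 at 0.911 times, so the groups overlapped. The log2 difference between groups was 0.61 (SE 0.43, 95% interval -0.38 to 1.6, limma adjusted p = 0.733). In the NSD2-3 library only 5 of 11313 genes had a larger log2 difference from Ctr-KD than SLC7A11. SLC3A2, the heavy chain that carries SLC7A11 to the membrane, was 833 and 812 in Ctr-KD cells and 666, 815 and 1296 in NSD2-KD cells, so it too was highest with NSD2-3 (limma, log2 difference 0.11, adjusted p = 0.92).

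HMOX1 encodes the inducible heme oxygenase, which breaks down heme to biliverdin, iron and carbon monoxide, and it varied most of the 10. It was 96.2 and 123 in Ctr-KD cells and 719, 359 and 94.7 in NSD2-KD cells. Relative to the control mean of 110 ± 19.3, the level was 6.54 times with NSD2-1, 3.27 times with NSD2-2 and 0.862 times with NSD2-3. The value with NSD2-3 was close to the lower control, at 97 against 101 reads. With NSD2-1 no other tested gene had a larger log2 difference from Ctr-KD than HMOX1 (2.71), and the next, BMP2, was at 1.66. With NSD2-2, 4 genes exceeded it (log2 difference 1.71), while with NSD2-3 it was at -0.20 and 8474 genes were higher. The log2 range of HMOX1 among the NSD2-KD libraries was 2.91, and 5 of 11313 genes (0.0442%), itself included, had a range that large, against a median range of 0.387 for all genes. The group difference was 1.41 (SE 0.68, 95% interval -0.16 to 2.97) and did not pass (limma, adjusted p = 0.592). This call depended on the library left out. Without NSD2-3 the log2 difference was 2.21 and passed (limma, adjusted p = 0.0369). That comparison called 0.0708% of genes higher, with HMOX1 the only member called. It drops the library in which HMOX1 was not high, so its pass is no separate support. Without NSD2-1 the difference was 0.755 and without NSD2-2 it was 1.25, and neither passed (limma, adjusted p = 0.636 and 0.633).

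**Figure D2:**
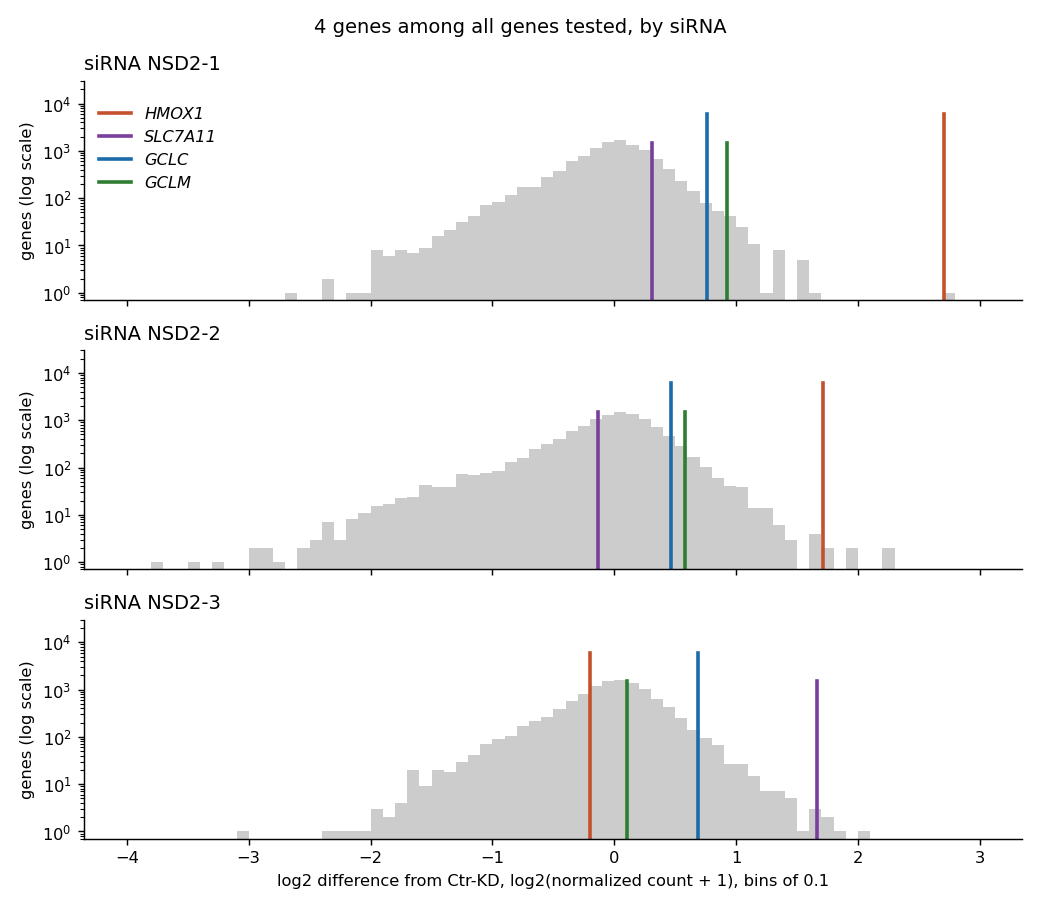
Histograms of the log2 difference from Ctr-KD, on log2(normalized count + 1), over all genes tested (grey, log scale of gene number, bins of 0.1), 1 panel per siRNA, with lines at HMOX1, SLC7A11, GCLC and GCLM. HMOX1 lay at the far right with NSD2-1 (2.71) and in the right tail with NSD2-2 (1.71) but left of 0 with NSD2-3 (-0.20), where SLC7A11 lay in the right tail (1.67).

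NQO1 and TXNRD1, which reduce quinones and thioredoxin, had the highest counts of the members in Ctr-KD cells. NQO1 was 1075 and 1093 in Ctr-KD cells and 1126, 1108 and 1345 in NSD2-KD cells. All 3 were above the controls, but those with NSD2-1 and NSD2-2 by little (1.04 and 1.02 times the control mean), and the log2 difference was 0.13 (95% interval -0.11 to 0.38, limma adjusted p = 0.772). TXNRD1 was 3271 and 3204 in Ctr-KD cells and 2927, 3598 and 4344 in NSD2-KD cells, below both controls with NSD2-1 and above them with the others. Its log2 difference was 0.14 (95% interval -0.20 to 0.48, limma adjusted p = 0.83).

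The superoxide dismutases, the cytosolic SOD1 and the mitochondrial SOD2, convert superoxide to hydrogen peroxide. SOD1 was 294 and 312 in Ctr-KD cells and 267, 242 and 300 in NSD2-KD cells. The value with NSD2-3 lay between the controls, and the log2 difference of -0.17 (95% interval -0.46 to 0.12) did not pass (limma, adjusted p = 0.747). SOD2 was 183 and 153 in Ctr-KD cells and 138, 281 and 125 in NSD2-KD cells, and was the only member that was highest with NSD2-2. With NSD2-1 and NSD2-3 it was below both controls, so the groups overlapped and the log2 difference was 0.015 (95% interval -0.71 to 0.74, limma adjusted p = 0.991), with a sign that turned in 3 of its alternatives.

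**Figure D3:**
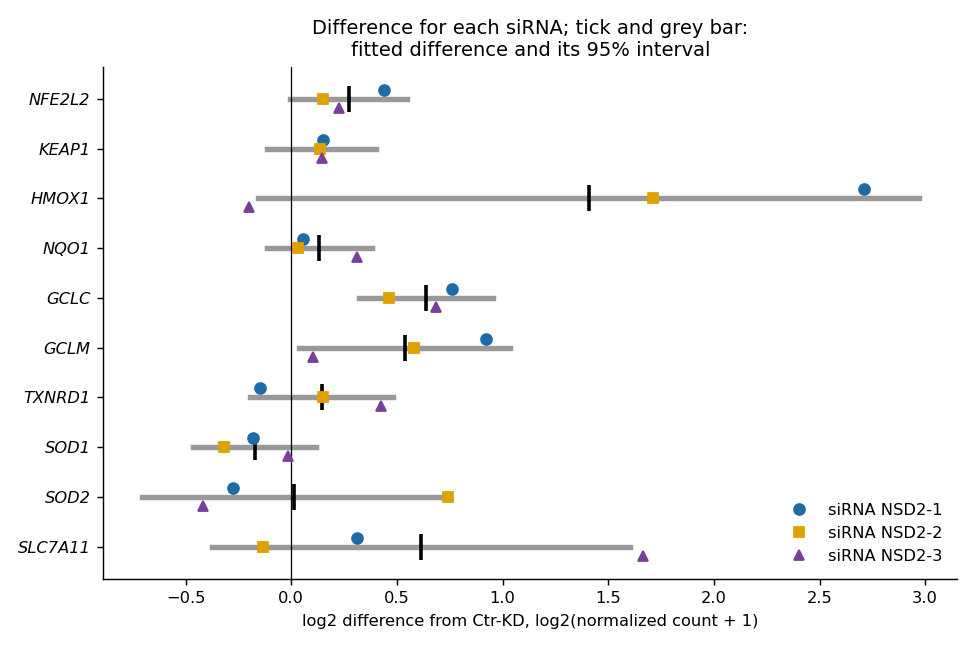
Log2 difference from the mean of Ctr-KD for each siRNA (circle NSD2-1, square NSD2-2, triangle NSD2-3) in each of the 10 genes, on log2(normalized count + 1). The black tick and grey bar give the fitted group difference and its 95% interval, which excluded 0 only for GCLC (0.32 to 0.95) and GCLM (0.037 to 1.04), before any adjustment for multiple tests.

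The siRNAs ordered the members differently, which is given as a description since each siRNA had 1 library. The order NSD2-1 over NSD2-2 over NSD2-3 was found in HMOX1 and GCLM and in 15.9% of all tested genes. FTH1, the ferritin heavy chain that stores the iron heme oxygenase frees, followed the same order, with 5521 and 5469 in Ctr-KD cells and 7241, 6402 and 5841 in NSD2-KD cells (limma, log2 difference 0.24, adjusted p = 0.53). FTH1 and FTL have many near-identical processed pseudogenes, so their unique reads are uncertain. BACH1, the repressor of HMOX1, had the reverse order, with 162 and 184 in Ctr-KD cells and 92.0, 128 and 241 in NSD2-KD cells. BACH1 was thus below both controls with NSD2-1 and NSD2-2, where HMOX1 was high, and above both with NSD2-3, where HMOX1 was not; its group difference was -0.28 (95% interval -1.07 to 0.50, limma adjusted p = 0.853). The reverse order was found in 15.7% of all genes. A link between BACH1 and HMOX1 was not tested. Of the members, 5 were highest with NSD2-1 (NFE2L2, KEAP1, HMOX1, GCLC and GCLM), 4 with NSD2-3 (NQO1, TXNRD1, SOD1 and SLC7A11) and 1 with NSD2-2. Among all tested genes, 33.6% were highest with NSD2-1, 32.8% with NSD2-3 and 33.6% with NSD2-2. The NSD2-KD values of KEAP1 (236, 233 and 234) lay within each other's counting intervals, so its place in this order is uncertain.

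**Figure D4:**
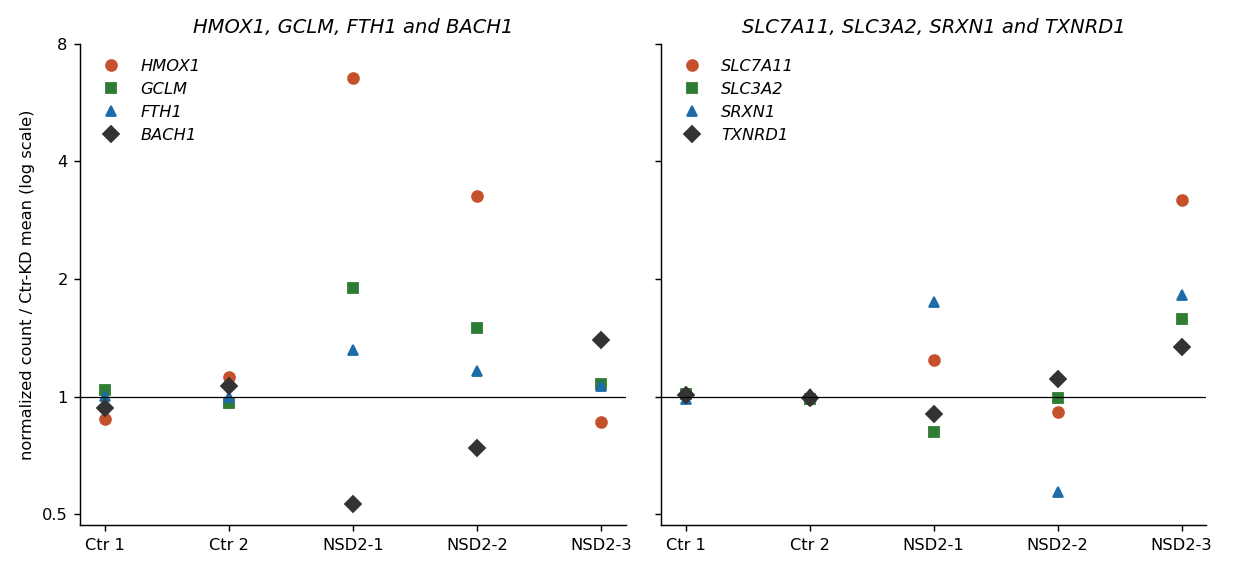
Normalized count over the Ctr-KD mean (log scale) in each library for HMOX1, GCLM, FTH1 and BACH1 (left) and for SLC7A11, SLC3A2, SRXN1 and TXNRD1 (right). From NSD2-1 to NSD2-3 the points of HMOX1 lay at 6.54, 3.27 and 0.862, those of GCLM and FTH1 in the same order and those of BACH1 in the reverse order, while SLC7A11 and SLC3A2 were both highest with NSD2-3.

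Compared per kilobase of the MANE Select transcript, so that genes of different length can be set side by side, the mean level in Ctr-KD cells was highest for TXNRD1 (839 ± 12.4 normalized counts per kb, SD, n = 2). NQO1 (430 ± 5.04) and SOD1 (339 ± 13.7) followed. NFE2L2 (130 ± 1.66) and KEAP1 (82.6 ± 3.42) came next, followed by SLC7A11 (73.2 ± 1.31) and HMOX1 (70.7 ± 12.4), whose control ranges overlapped. GCLC (35.1 ± 0.493) and GCLM (34.6 ± 1.85) also overlapped in the controls. SOD2 was lowest at 11.9 ± 1.48, but its MANE Select transcript is 14167 bases long and a shorter form would raise this level. In NSD2-KD cells HMOX1 ranged from 60.9 to 462 per kb, so that with NSD2-1 it exceeded the per-kb level of SOD1 (298) and of NQO1 (447) in the same library.

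On GRCh37, the assembly of hg19, the MANE Select transcripts placed NFE2L2 at chr2:178095036-178129455 (5 exons), KEAP1 at chr19:10596801-10614032 (6 exons), HMOX1 at chr22:35777089-35790200 (5 exons) and NQO1 at chr16:69743304-69760463 (6 exons). GCLC lies at chr6:53362139-53409899 (16 exons), GCLM at chr1:94350755-94374986 (7 exons) and TXNRD1 at chr12:104609557-104744085 (17 exons). SOD1 lies at chr21:33032006-33041244 (5 exons), SOD2 at chr6:160090101-160114273 (5 exons) and SLC7A11 at chr4:139085251-139163503 (12 exons). HMOX1, TXNRD1 and SOD1 are on the plus strand and the other 7 on the minus strand. Exons of GCLC and SLC7A11 overlap those of the antisense genes GCLC-AS1 and SLC7A11-AS1, and exons of NFE2L2 and NQO1 overlap unnamed genes on the other strand. The strand setting of the counting was not given in the sources used here, so for these 4 genes reads of the partners cannot be told apart.

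Around the 10 genes, 212 further genes of 8 overlapping pathway lists were found in the table, and 166 were tested. None passed the test by limma, edgeR or limma-voom (DESeq2 called CDKN1A). At an unadjusted p under 0.05, 21 were higher and 6 lower, that is 12.7% and 3.61% of the 166, beside 4.19% and 4.99% of all genes. All 3 NSD2-KD libraries lay above both controls in 49 and below both in 12, and the groups overlapped in 105. Genes fully above were thus 29.5% of the 166 and genes fully below 7.23%, beside 13.8% and 13.9% of all genes; the lists were not tested as sets. These 4 shares of all genes are the background for the counts of each list below, and a list with counts near them shows no more than genes in general. The median log2 difference was 0.089.

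**Figure D5:**
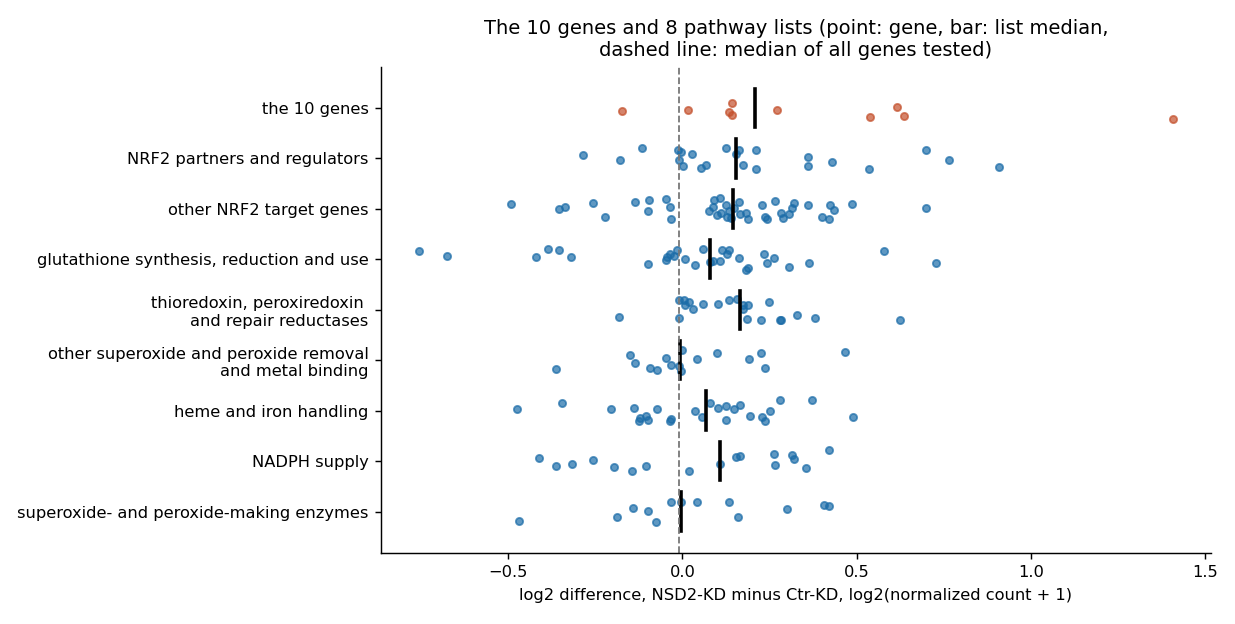
Fitted log2 difference of NSD2-KD minus Ctr-KD, on log2(normalized count + 1), for the 10 genes (orange) and the tested genes of 8 pathway lists (blue). Each point is a gene and each black bar a list median, and the dashed line is the median of all genes tested (-0.0089). Most medians lay right of that line, up to 0.21 for the 10 genes, while those for superoxide and peroxide removal (-0.0074) and for superoxide- and peroxide-making enzymes (-0.0053) lay on it.

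Of 23 tested partners and regulators of NRF2, 6 were higher at an unadjusted p under 0.05 and none lower (4.19% and 4.99% of all genes), and 10 lay fully above the controls and none below (13.8% and 13.9% of all genes; median 0.15). CUL3, the scaffold of the ligase, was 279 and 227 in Ctr-KD cells and 242, 175 and 261 in NSD2-KD cells, with overlapping groups. NFE2L1, the related factor NRF1, was 963 and 979 in Ctr-KD cells and 866, 1036 and 1000 in NSD2-KD cells, and also overlapped. MAFG, a small MAF partner, was 157 and 200 in Ctr-KD cells and 375, 224 and 284 in NSD2-KD cells, all above the controls (limma, log2 difference 0.70, adjusted p = 0.354). The largest positive differences with separate groups were in AMER1, whose product binds KEAP1 (0.91, limma adjusted p = 0.413), at counts of only 12.3 to 39.3, and CDKN1A. CDKN1A, the cyclin-dependent kinase inhibitor p21, which also binds NRF2, was 1851 and 1905 in Ctr-KD cells and 2455, 3955 and 3340 in NSD2-KD cells (limma, log2 difference 0.76, adjusted p = 0.237). MAFK and SQSTM1, chosen after their values were seen, were above the controls with every siRNA. MAFK, another small MAF, was 155 and 141 in Ctr-KD cells and 236, 224 and 188 in NSD2-KD cells. SQSTM1, the p62 protein that sequesters KEAP1, was 2555 and 2526 in Ctr-KD cells and 3412, 3204 and 3176 in NSD2-KD cells (limma, log2 difference 0.36, adjusted p = 0.224).

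Among 42 tested other NRF2 targets, 9 were higher and 1 lower at an unadjusted p under 0.05, and 16 lay fully above and 2 fully below the controls (median 0.14). UGDH, which makes UDP-glucuronate, was 262 and 264 in Ctr-KD cells and 380, 405 and 327 in NSD2-KD cells (limma, log2 difference 0.49, adjusted p = 0.267). SRXN1, the sulfiredoxin that restores oxidized peroxiredoxins, was 281 and 288 in Ctr-KD cells and 496, 162 and 517 in NSD2-KD cells. SRXN1 was thus above the controls with NSD2-1 and NSD2-3 and below them with NSD2-2, with a log2 range of 1.67 that 1.13% of all genes matched or exceeded. The carbonyl reductases CBR3 (log2 difference -0.49, limma adjusted p = 0.664) and CBR1 (-0.34, limma adjusted p = 0.413) were below the controls with every siRNA.

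The glutathione list, with 31 tested genes besides GCLC, GCLM and SLC7A11, had members on both sides. Of these, 2 were higher and 3 lower at an unadjusted p under 0.05, with 8 fully above and 4 fully below the controls (median 0.078). The 4 genes fully below were 12.9% of the list, near the 13.9% of all genes, and the 8 fully above were 25.8%, beside 13.8%. GSS, which completes glutathione after glutamate-cysteine ligase, was 102 and 93.6 in Ctr-KD cells and 146, 162 and 133 in NSD2-KD cells (limma, log2 difference 0.58, adjusted p = 0.267). GSR, which reduces oxidized glutathione, was 262 and 264 in Ctr-KD cells and 337, 324 and 315 in NSD2-KD cells (limma, log2 difference 0.31, adjusted p = 0.413). The mRNAs of GSS and GSR therefore lay above the controls with all 3 siRNAs, as those of GCLC and GCLM did. With NSD2-3, GCLM did so barely, at 182 against 175 in the higher control, and none of these genes passed. GGCT, which degrades gamma-glutamyl peptides, was 77.2 and 76.1 in Ctr-KD cells and 41.4, 55.7 and 46.9 in NSD2-KD cells (limma, log2 difference -0.67, adjusted p = 0.316). GSTCD had a log2 difference of -0.76 (limma adjusted p = 0.53), and MGST2, a microsomal glutathione transferase, was at 0.73 (limma adjusted p = 0.574) with counts of 6.17 to 15.6. The peroxidases GPX1 and GPX4 had overlapping groups, with log2 differences of 0.11 and 0.060.

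Among 22 tested thioredoxin, peroxiredoxin and repair genes, 2 were higher and none lower at an unadjusted p under 0.05, with 7 fully above and none fully below the controls (median 0.17). TXN, the thioredoxin that TXNRD1 reduces, was 603 and 588 in Ctr-KD cells and 634, 702 and 702 in NSD2-KD cells (limma, log2 difference 0.19, adjusted p = 0.619). TXN was therefore above the controls with NSD2-1, where TXNRD1 was below them. SESN1, a sestrin and known p53 target, had the largest difference of the list at 0.62 (limma adjusted p = 0.469), and TXNRD3 followed at 0.38 (limma adjusted p = 0.674).

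The list of other superoxide and peroxide removal and metal binding had 16 tested genes, of which 1 was higher and none lower at an unadjusted p under 0.05, with 3 fully above and none fully below (median -0.0074). CAT, the catalase, was 166 and 178 in Ctr-KD cells and 150, 177 and 173 in NSD2-KD cells, and CCS, the copper chaperone of SOD1, was 48.6 and 46.3 in Ctr-KD cells and 46.9, 62.3 and 54.7 in NSD2-KD cells. Both overlapped. MT1X, a metallothionein, had a log2 difference of 0.47 (limma adjusted p = 0.673) at counts of 18.1 to 32.2.

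Heme and iron handling, the surroundings of HMOX1, had 26 tested genes with 2 higher and none lower at an unadjusted p under 0.05, and 7 fully above and 2 fully below the controls (median 0.068). FTL, the ferritin light chain, was 7015 and 7559 in Ctr-KD cells and 8185, 5617 and 7844 in NSD2-KD cells and overlapped, unlike FTH1. The heme synthesis enzymes did not share a direction, with CPOX at 0.49 (limma adjusted p = 0.525), PPOX at -0.47 (limma adjusted p = 0.632) and ALAD at -0.21 (limma adjusted p = 0.756). The heme transporter SLC48A1 was at 0.28 (limma adjusted p = 0.762).

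NADPH, the reductant for TXNRD1, NQO1 and GSR, is supplied by a list of which 17 genes were tested, with 4 higher and 1 lower at an unadjusted p under 0.05, and 7 fully above and 3 fully below (median 0.11). PGD of the pentose phosphate pathway was 565 and 540 in Ctr-KD cells and 858, 643 and 733 in NSD2-KD cells (limma, log2 difference 0.42, adjusted p = 0.356), and TKT had a difference of 0.32 (limma adjusted p = 0.375). The folate enzyme MTHFD1 (-0.41, limma adjusted p = 0.432) and the malic enzyme ME2 (-0.36, limma adjusted p = 0.611) lay below the controls. Of 13 tested genes for superoxide- and peroxide-making enzymes, 3 were higher and 1 lower at an unadjusted p under 0.05, with 4 fully above and 1 fully below (median -0.0053). POR (0.42, limma adjusted p = 0.392) and ERO1A (0.41, limma adjusted p = 0.423) were above the controls with every siRNA, and RAC2 (-0.47, limma adjusted p = 0.351), a subunit of the phagocyte oxidase, was below them.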

How the data were processed

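mRNA-seq of 5 libraries (2 Ctr-KD, 3 NSD2-KD) was used. Per the supporting procedures, poly(A) RNA was sequenced as single-end reads, mapped to hg19 with HISAT2, limited to uniquely mapped reads with SAMtools and counted with featureCounts. Its annotation and strand setting were not given in the sources used here. The signal deposited by the authors is reads per gene divided by a DESeq2 size factor per library; 100% of values were whole multiples of 1 read (tolerance 0.01), so reads were recovered for the count tests. A second deposited table holds the authors' own DESeq2 comparison and was not used. With size factors, a shift common to every gene would not be seen.

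Groups and siRNAs came from the sample labels. The main test was limma 3.58.1 in R 4.3.3 with a mean-variance trend, two-sided, on log2(normalized count + 1), over genes with a mean of at least 10, with Benjamini-Hochberg adjustment at 0.05. Fold differences on this scale are understated for low genes. The test was checked on simulated data with large changes and the same spread in both groups. The check therefore does not cover smaller changes or groups of unequal spread, as found here. Alternatives were another pseudocount (0.5 or 5), another filter (none, or a mean of at least 50), no trend, robust estimation, TMM scaling, edgeR 4.0.16 (quasi-likelihood), DESeq2 1.42.0 and limma-voom on the reads, the replicate number as a block, a threshold of 0.1 and each library left out; counting the Ctr-KD libraries as 1 was added after seeing the data. The 10 members and the 8 pathway lists (213 symbols, 212 found, 3 of them under an older name) were chosen with earlier results of these data known. Named from each list were the genes past the threshold, the 2 largest differences in each direction among genes whose groups did not overlap, and 13 fixed partners of the members. Of 26364 names, 28 looked like dates and 2 were listed more than once. Of the listed genes, 2 are not reported by name here.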

Additional observations from a re-analysis of the deposited data

How the results depend on the processing

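Across 17 alternatives, 165 of 170 values of the 10 genes kept their sign and their side of the threshold. HMOX1 passed in 2 (log2 difference 2.21 with the replicate block and 2.21 without the library of NSD2-3), and SOD2 changed sign in 3 (-0.013 with limma-voom, and from -0.35 to 0.23 with a library left out). No member was called in the main comparison, 1 with the block, and 0 to 1 with a library left out; their median log2 difference of 0.21 ranged from 0.19 to 0.26 with a library left out. Of the further pathway genes CDKN1A was called, as 1 gene, by DESeq2, with the block and without NSD2-1 (0 to 1 with a library left out). Over all genes, 6 were called lower and 4 higher. Without the trend these counts were 1 and 0, and with the Ctr-KD libraries counted as 1 they were 0 and 0. DESeq2 called 43 lower and 11 higher, edgeR 11 lower, and an adjusted p under 0.1 gave 11 lower. With a library left out, 0 to 22 were lower and 0 to 8 higher. The cause was not tested. With the replicate number as a block, 84 were lower and 18 higher. The numbers are not known to pair the samples: the deviations of same-numbered libraries had correlations of -0.015 and -0.027, and NSD2-3 has no control of its number, so the block leaves it without influence on the difference. Scaling moved the median of all genes by less than 0.1 in every alternative. Depth, 2473691 to 2845063 reads on genes per library, limits the genes of low count most.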

Other observations

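Some pathway genes outside the comparisons above, chosen after their values were seen, also differed between the 3 siRNAs by more than most genes, for which the median log2 range among the NSD2-KD libraries was 0.387 and the 95th percentile 1.21. ABCC1, an exporter of glutathione conjugates, was 1222 and 1136 in Ctr-KD cells and 687, 1585 and 1815 in NSD2-KD cells, below the controls with NSD2-1 and above them with the others (log2 range 1.40). IREB2, the iron regulatory protein that controls ferritin translation, was 207 and 190 in Ctr-KD cells and 93.9, 246 and 164 in NSD2-KD cells (log2 range 1.38), lowest with NSD2-1, where HMOX1 and FTH1 were highest. TFRC, the transferrin receptor, was 623 and 704 in Ctr-KD cells and 867, 379 and 709 in NSD2-KD cells (log2 range 1.19). TXNIP, which binds thioredoxin, was 209 and 251 in Ctr-KD cells and 387, 165 and 184 in NSD2-KD cells (log2 range 1.23), above the controls with NSD2-1 only. Each siRNA had 1 library, so these differences have no replicate.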
